A study of Mus musculus with 12 samples.

Results

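A set of 10 genes around the FOXO transcription factors was described in heart muscle cells of dystrophic mice: the factors Foxo1 and Foxo3, the muscle atrophy genes Fbxo32, Trim63 and Klhl38, and the autophagy genes Ulk1, Map1lc3b, Gabarapl1, Sqstm1 and Bnip3. They were taken by gene symbol and are 10 of the 18530 genes in the authors' table, and all 10 passed the filter on low values that left 12798 genes for testing. Foxo3 and Klhl38 were chosen because of their response to PB1046 in these same libraries, so their PB1046 differences are given as a description with no test. The RNA came from cardiomyocytes isolated from the heart, and 12 libraries of poly-A RNA make 4 groups with 3 apiece: mdx given PB1046, mdx given saline, mdx:Utrn+/- given PB1046 and mdx:Utrn+/- given saline. All mice were mdx, which lack dystrophin, the protein that ties the muscle cytoskeleton to the cell membrane. The mdx:Utrn+/- mice also carry a single working copy of the gene for utrophin, a dystrophin relative that partly replaces it. PB1046 is a long-acting analogue of vasoactive intestinal peptide, given at the larger of the protocol's doses, which is 1.5 mg/kg if the labels' high dose means that, on alternate days between 4 and 12 weeks of age, and hearts were taken at 14 weeks. Mice without the dystrophin mutation are not analysed here, so no level below can be set against a healthy heart.

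FOXO factors are held in the cytoplasm when insulin and growth factor signalling through Akt phosphorylates them, and they enter the nucleus when that signal weakens. In striated muscle they switch on ubiquitin ligases that send contractile proteins to the proteasome, and genes of autophagy, by which cell contents are enclosed in a membrane and digested in lysosomes. Because FOXO activity is set largely by phosphorylation and location, the mRNA level of a FOXO gene is not a measure of its activity.

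The libraries held 7234100 to 25458194 reads recovered from the deposited TPM (transcript abundance: reads per length of transcript, scaled to the same total in every library). Foxo3 rested on 59 to 210 reads a library, Klhl38 on 70 to 546 and Foxo1 on 209 to 692, while Trim63 had 1681 to 5981 and Sqstm1 2413 to 13170. The cardiomyocyte label fits the marker levels: 10 cardiomyocyte markers summed to 91970 to 129100 TPM in every library, and 8 skeletal muscle markers to 6.55 to 17.5 TPM, with 5 of these 8 under 1 TPM throughout. Libraries 2 and 3 of mdx with PB1046, 2 and 3 of mdx with saline and 2 of mdx:Utrn+/- with PB1046 stood apart from the other 7 on the first principal component. Their 15 endothelial markers summed to 866.8 to 1864 TPM, against 294.1 to 550.3 TPM in the other 7 libraries. Log2 differences of the members that these 5 libraries move by more than 1.5 times or turn are given with and without them. Nothing in the labels states that the 3 libraries of a group came from separate mice, so the p-values below measure the spread between these libraries, which may be technical.

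In order of mean level over the 12 libraries, Sqstm1 came first with 348.2 TPM and was the highest member in every library. Map1lc3b, Bnip3 and Trim63 followed with 220.4, 219.1 and 194.2 TPM and could not be ordered, since Map1lc3b was above Bnip3 in 7 of 12 libraries and Bnip3 above Trim63 in 8 of 12. Gabarapl1 averaged 91.0 TPM and Fbxo32 41.2 TPM, and the range of Gabarapl1 met neither that of Trim63 nor that of Fbxo32. Ulk1 averaged 25.7 TPM, below Fbxo32 in all 12 libraries. Klhl38 (11.5 TPM) and Foxo1 (9.46 TPM) changed places between libraries, with Klhl38 higher in 9 of 12, and Foxo3 was the lowest member with 5.04 TPM, below Foxo1 in all 12. The members also differed in how much they varied: the highest library exceeded the lowest by 4.43 times for Klhl38, 4.23 times for Foxo3 and 3.23 times for Foxo1, but by 1.47 times for Ulk1 and 1.60 times for Gabarapl1. The 2 other FOXO genes of the mouse bracket these levels. Foxo4 had a median of 26.9 TPM (21.6 to 46.3) and exceeded Foxo1 in 12 of 12 libraries, and Foxo6 had a median of 0.914 TPM (0.178 to 1.65).

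**Figure D1:**
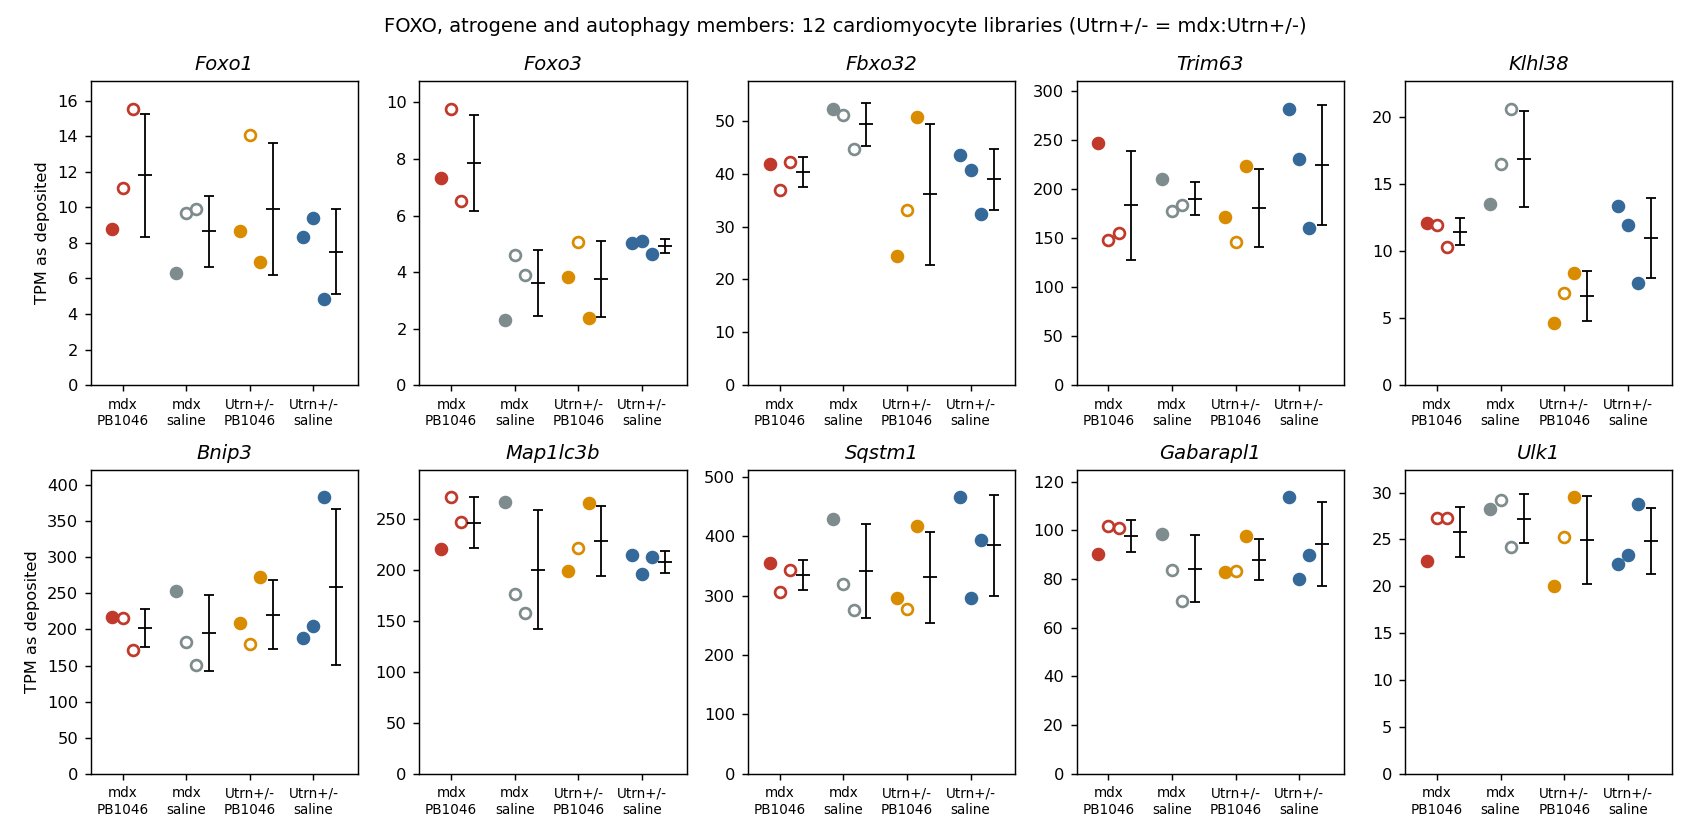
TPM as deposited of the 10 members in the 12 libraries, 1 panel per gene with its own axis from 0. Points are libraries (open points, the 5 that stood apart), and the bar beside them is the mean ± SD of the 3 libraries. Foxo3 is highest in the mdx libraries given PB1046, at 6.52 to 9.78 TPM, and Klhl38 is lowest in the mdx:Utrn+/- libraries given PB1046, at 4.65 to 8.36 TPM.

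Promoter sequence was taken from RefSeq (GRCm38.p6, 250 bases before to 50 after the start of transcription) for the 8 members with an entry, which are all but Fbxo32 and Klhl38. The motifs searched, on both strands, were the FOXO core GTAAACA, the E-box CACGTG, which TFEB-type and HIF-type factors read, and the cAMP response element TGACGTCA. The FOXO core stood in 1 of the 8 windows, that of Trim63, and in 3.65% of all 32851 promoter windows of the same length. The E-box stood in 1 of the 8, that of Bnip3, and in 7.15% of all windows, and the cAMP element in none of the 8 and in 1.79% of all. The windows that held a motif are shown with the motif in capitals, Trim63 from chr4:134314870-134315169 on the plus strand and Bnip3 from chr7:138909457-138909756 on the minus strand.
Trim63: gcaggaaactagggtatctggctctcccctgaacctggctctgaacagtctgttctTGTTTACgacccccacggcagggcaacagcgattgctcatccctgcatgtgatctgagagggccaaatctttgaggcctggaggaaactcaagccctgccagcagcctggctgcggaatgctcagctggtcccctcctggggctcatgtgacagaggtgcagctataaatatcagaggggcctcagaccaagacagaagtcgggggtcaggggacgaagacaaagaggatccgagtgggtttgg
Bnip3: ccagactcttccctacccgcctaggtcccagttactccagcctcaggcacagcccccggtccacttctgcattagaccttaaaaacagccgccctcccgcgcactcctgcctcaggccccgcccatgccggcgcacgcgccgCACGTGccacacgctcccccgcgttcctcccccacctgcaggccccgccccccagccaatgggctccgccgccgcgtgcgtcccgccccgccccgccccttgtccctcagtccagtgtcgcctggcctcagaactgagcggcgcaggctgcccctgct
The FOXO core of Trim63 lies at positions -194 to -188 from the start site, and the E-box of Bnip3 at -108 to -103. A match of letters is a description of the sequence and not a bound site, and a window without a match says nothing about binding elsewhere.

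Foxo1, the FOXO factor best known for insulin-dependent control of metabolism, had 8.79, 11.1 and 15.6 TPM in mdx libraries with PB1046, against 6.33, 9.67 and 9.93 TPM in mdx libraries with saline. In mdx:Utrn+/- it had 8.67, 14.1 and 6.94 TPM with PB1046, against 8.31, 9.38 and 4.82 TPM with saline. The groups overlapped in both genotypes. The difference, on the scale log2(scaled TPM + 1), was 0.25 in mdx (95% interval -0.33 to 0.82) and 0.18 in mdx:Utrn+/- (-0.40 to 0.76), with limma's Benjamini-Hochberg adjusted p of 0.999 and 0.998. The values without the 5 libraries that stood apart were 0.51 in mdx, on 1 library a side, and 0.05 in mdx:Utrn+/-. As deposited, Foxo1 had 9.67 to 15.6 TPM in the 5 libraries that stood apart, against 4.82 to 9.38 TPM in the other 7. The share of all genes that did so as deposited was not computed. Those 5 libraries have the highest scaling factors of the series, at 1.01 to 1.31 against 0.828 to 0.998 in the other 7. After scaling for composition the Foxo1 ranges met. Foxo1 is also expressed in endothelial cells, and with PB1046 15 of 15 endothelial markers were higher in mdx:Utrn+/- (median log2 difference 0.57) and 6 of 15 in mdx (-0.05), with none of them at 0 throughout. With an endothelial score as a term in the fit the Foxo1 difference was 0.25 in mdx and 0.12 in mdx:Utrn+/-. Foxo4 had a log2 difference of 0.25 in mdx (-0.09 to 0.59) and -0.12 in mdx:Utrn+/- (-0.46 to 0.21).

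Foxo3, the FOXO factor tied most closely to muscle atrophy and autophagy, had 7.31, 9.78 and 6.52 TPM in mdx libraries with PB1046, against 2.31, 4.60 and 3.90 TPM in mdx libraries with saline. In mdx:Utrn+/- it had 3.81, 5.07 and 2.38 TPM with PB1046, against 5.04, 5.09 and 4.65 TPM with saline. As deposited, every mdx library with PB1046 lay above every other library of the series, while after scaling the lowest of them (4.98 scaled TPM) was below the mdx:Utrn+/- libraries with saline (5.29 to 6.01). In mdx:Utrn+/- the groups overlapped as deposited and lay apart after scaling, with PB1046 lower. The means were 7.87 ± 1.70 TPM with PB1046 and 3.60 ± 1.17 TPM with saline in mdx, and 3.76 ± 1.35 TPM with PB1046 and 4.92 ± 0.238 TPM with saline in mdx:Utrn+/- (SD, n = 3 each). As differences of log2(scaled TPM + 1) these are 0.82 in mdx and -0.52 in mdx:Utrn+/-, and the response in mdx:Utrn+/- minus that in mdx is -1.34. Without the 5 libraries that stood apart the mdx difference is 1.42, which then rests on 1 library a side. Of the 12798 genes tested, 4.0% had all 3 scaled values higher with PB1046 in mdx, 2.75% had all 3 lower and 2.89% all 3 higher with PB1046 in mdx:Utrn+/-, and 15 genes did as Foxo3 did in both genotypes (0.117%). The choice of Foxo3 for its response fixes its own place in these counts.

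The genotypes also lay apart for Foxo3 within each treatment. With saline, Foxo3 was higher in mdx:Utrn+/- (4.65 to 5.09 TPM) than in mdx (2.31 to 4.60 TPM) with no overlap, and 5.5% of tested genes had all scaled values higher in mdx:Utrn+/- under saline. Fbxo32 and Klhl38 were lower there without overlap as deposited and overlapped after scaling, where 4.09% of tested genes were lower without overlap. With PB1046 the order was turned, at 2.38 to 5.07 TPM in mdx:Utrn+/- against 6.52 to 9.78 TPM in mdx. The share of all tested genes that lay apart between the genotypes under PB1046 was not computed. These genotype contrasts use the libraries on which Foxo3 was chosen, so they are given without a test. Averaged over treatments, the genotype difference of Foxo3 was -0.05 (95% interval -0.43 to 0.33). Markers of some other cells in the preparation moved with the same contrast, and others did not. All 15 macrophage markers were higher with PB1046 in mdx (median log2 difference 0.40) and 15 of 15 were lower in mdx:Utrn+/- (-0.47), and 11 of 12 fibroblast markers were higher in mdx and 12 of 12 lower in mdx:Utrn+/-. By contrast, 6 of 15 endothelial markers were higher with PB1046 in mdx and 15 of 15 in mdx:Utrn+/-. All 6 erythroid markers were higher in both genotypes (median log2 difference 1.91 in mdx and 0.70 in mdx:Utrn+/-). They summed to 115.0 to 1707 TPM with PB1046 and 30.7 to 159.6 TPM with saline in mdx. In mdx:Utrn+/- the sums were 113.9 to 1251 TPM with PB1046 and 57.8 to 441.4 TPM with saline. Summed macrophage markers ranged from 364.4 to 1025 TPM with PB1046 and 146.1 to 851.3 TPM with saline in mdx, and from 205.3 to 505.2 TPM with PB1046 and 199.6 to 1058 TPM with saline in mdx:Utrn+/-, and none of these markers was at 0 throughout. Their part in the Foxo3 level was not tested, and in bulk RNA fewer cells of a type and less RNA per cell cannot be told apart.

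Fbxo32 encodes atrogin-1, the substrate-binding part of a ubiquitin ligase and a standard marker of muscle atrophy. It had 41.8, 37.0 and 42.2 TPM in mdx with PB1046, against 52.3, 51.1 and 44.7 TPM in mdx with saline, and 24.5, 33.1 and 50.7 TPM in mdx:Utrn+/- with PB1046, against 43.5, 40.7 and 32.5 TPM in mdx:Utrn+/- with saline. All 3 mdx libraries with PB1046 were below all 3 with saline as deposited, but after scaling the ranges overlapped (29.1 to 45.0 against 44.3 to 52.4 scaled TPM). The share of all genes that lay apart as deposited was not computed. The log2 difference was -0.44 in mdx (95% interval -1.01 to 0.12, adjusted p = 0.999 in limma) and -0.34 in mdx:Utrn+/- (-0.90 to 0.23, adjusted p = 0.998). Averaged over the genotypes it was -0.39 with an interval of -0.79 to 0.01, the nearest to the threshold of the 8 members tested against PB1046 (unadjusted p = 0.0549 and adjusted p = 1.00 in limma). Without the 5 libraries that stood apart the differences were -0.22 in mdx, -0.17 in mdx:Utrn+/- and -0.19 averaged over both, and with the endothelial score as a term that in mdx:Utrn+/- was -0.16.

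Trim63 encodes MuRF1, a ubiquitin ligase of the sarcomere that targets thick-filament proteins. It had 246.8, 147.3 and 154.9 TPM in mdx with PB1046, against 209.5, 177.0 and 183.4 TPM in mdx with saline. In mdx:Utrn+/- it had 171.0, 145.4 and 223.5 TPM with PB1046, against 281.6, 230.0 and 160.3 TPM with saline. The groups overlapped in both genotypes. In mdx the means were 183.0 ± 55.4 TPM with PB1046 and 190.0 ± 17.2 TPM with saline (SD, n = 3 each). Those in mdx:Utrn+/- were 179.9 ± 39.8 TPM with PB1046 and 224.0 ± 60.9 TPM with saline. The log2 difference was -0.25 in mdx (95% interval -1.03 to 0.52) and -0.48 in mdx:Utrn+/- (-1.26 to 0.29), with limma adjusted p of 0.999 and 0.998. The mdx value turned to 0.34 without the 5 libraries apart, on 1 library a side, and that in mdx:Utrn+/- was -0.20. With the endothelial score as a term the values were -0.25 and -0.10.

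Klhl38 encodes a kelch-repeat protein of striated muscle. It had 12.0, 12.0 and 10.3 TPM in mdx with PB1046, against 13.5, 16.5 and 20.6 TPM in mdx with saline, and 4.65, 6.84 and 8.36 TPM in mdx:Utrn+/- with PB1046, against 13.3, 11.9 and 7.64 TPM in mdx:Utrn+/- with saline. The mdx groups did not overlap, with PB1046 lower, whereas in mdx:Utrn+/- 1 library with PB1046 lay above the lowest with saline. The log2 differences were -0.65 in mdx and -0.82 in mdx:Utrn+/-, given without a test because the gene was chosen for them; all 3 scaled values were lower with PB1046 in mdx for 4.31% of tested genes. Without the 5 libraries apart the mdx difference was -0.06 on 1 library a side, while that in mdx:Utrn+/- was -0.74 on 2 libraries with PB1046 and 3 with saline. The mdx value thus rests on libraries 2 and 3 of each treatment. Its genotype difference was not used in the choice: averaged over treatments it was -0.43 in mdx:Utrn+/- against mdx (95% interval -0.84 to -0.02), and the adjusted p in limma was 0.858. Before adjustment it was under 0.05, as for 3.66% of tested genes. Cardiomyocyte markers moved the same way as these muscle genes with PB1046: 9 of 10 were lower in mdx (median log2 difference -0.35) and 7 of 10 in mdx:Utrn+/- (-0.05), and their part in the levels of Fbxo32, Trim63 and Klhl38 was not tested.

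Fbxo32 and Klhl38 are neighbours. On mm10 both lie on the minus strand of chromosome 15, Fbxo32 at 58175879 to 58214892 and Klhl38 at 58314573 to 58324169, 99.7 kb apart with no other gene of the table between them. The 7 other tested genes of the surrounding stretch, from Tbc1d31 to D15Ertd621e, had PB1046 differences of -0.31 to 0.35 in mdx and -0.35 to 0.34 in mdx:Utrn+/-, beside -0.44 and -0.34 for Fbxo32 and -0.65 and -0.82 for Klhl38. Across the 12 libraries Fbxo32 and Klhl38 had a Pearson r of 0.75 on the log2 scale, and 0.79 over the 7 libraries that did not stand apart. Among 11471 genes ranked by likeness to Klhl38, Fbxo32 was number 11. By likeness to Fbxo32, Klhl38 was number 72, beside Trim63 of chromosome 4 at number 77 (r = 0.747 and 0.745). The nearby gene 9130401M01Rik had r = 0.67 with Fbxo32 and 0.26 with Klhl38. The antisense transcript Gm15943 spans the gap and overlaps both genes (58214475 to 58324053, plus strand, GENCODE). The kit kept strand, but whether the counting used it is not given in the sources used here, so reads from that transcript cannot be told from those of the 2 genes. The same limit holds for Bnip3 and Sqstm1, which overlap genes annotated on the other strand. Foxo1, Map1lc3b and Gabarapl1 overlap annotated genes on both strands, and counting by strand would not set apart those on their own strand. Foxo3, Trim63 and Ulk1 overlap none. The libraries share depth and composition, so these correlations describe the 12 libraries and carry no test.

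**Figure D2:**
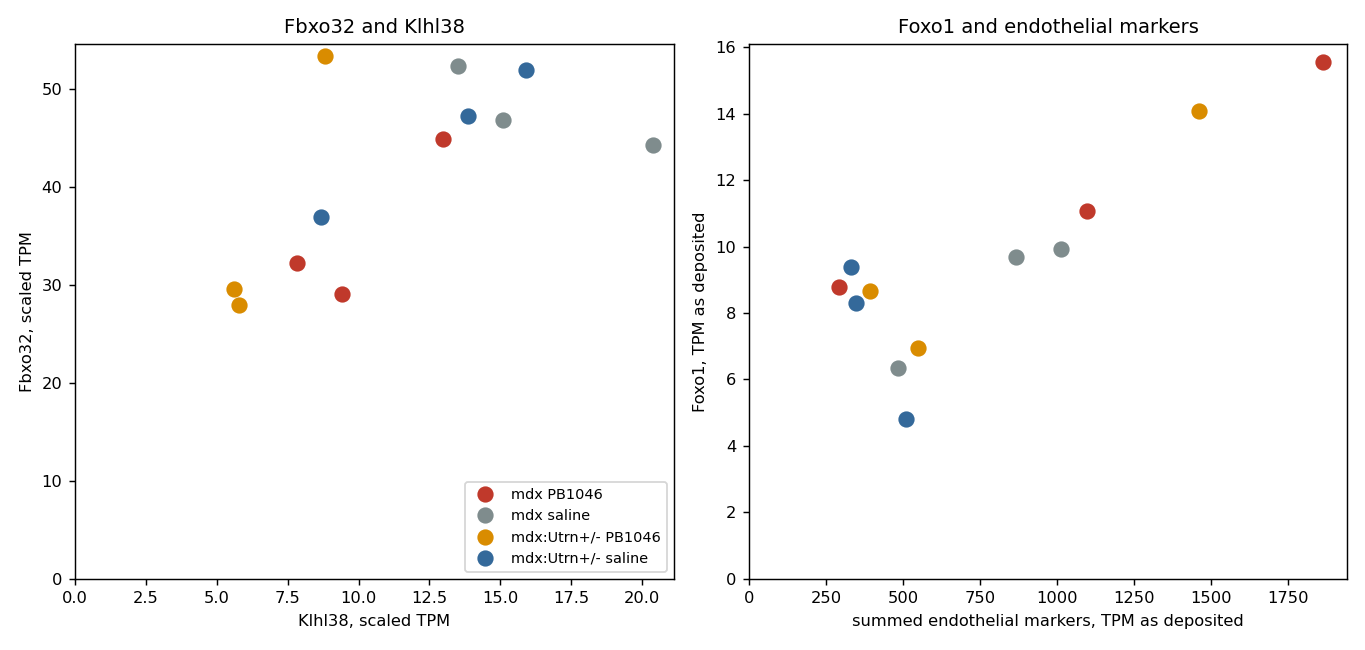
Left, Fbxo32 against Klhl38 in scaled TPM; right, Foxo1 in deposited TPM against the summed TPM of 15 endothelial markers. Each point is a library, coloured by group. In 4 of the 6 libraries given PB1046, Fbxo32 is at 28.0 to 32.2 and Klhl38 at 5.61 to 9.40 scaled TPM. Of these, libraries 2 and 3 of mdx and 2 of mdx:Utrn+/- are among the 5 that stood apart. In library 1 of mdx and library 3 of mdx:Utrn+/- given PB1046, Fbxo32 is at 44.97 and 53.37 scaled TPM. The value of 53.37 is the highest Fbxo32 of the 12 libraries. Klhl38 is above the range given in the former and within it in the latter. The highest Foxo1, 15.6 TPM, is in the library with the highest endothelial sum, 1864 TPM.

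Ulk1, the kinase that starts autophagosome formation, had 22.7, 27.3 and 27.3 TPM in mdx with PB1046, against 28.3, 29.2 and 24.2 TPM in mdx with saline. In mdx:Utrn+/- it had 20.1, 25.2 and 29.5 TPM with PB1046, against 22.3, 23.4 and 28.8 TPM with saline. It was the steadiest member, and the log2 differences of -0.23 in mdx (95% interval -0.62 to 0.15) and -0.18 in mdx:Utrn+/- (-0.57 to 0.21) had the narrowest intervals of the 8 tested. The value in mdx:Utrn+/- was -0.06 without the 5 libraries apart, and with the endothelial score as a term -0.11. Map1lc3b, which encodes LC3B, the protein lipidated onto the growing autophagosome, had 220.5, 270.8 and 246.3 TPM in mdx with PB1046, against 266.6, 176.0 and 157.3 TPM in mdx with saline. It had 198.4, 220.8 and 265.1 TPM in mdx:Utrn+/- with PB1046, against 214.4, 195.6 and 212.6 TPM in mdx:Utrn+/- with saline. The groups overlapped, and the log2 differences were 0.17 (-0.35 to 0.68) in mdx and -0.06 (-0.58 to 0.46) in mdx:Utrn+/-, both turned without the 5 libraries apart, to -0.17 and 0.10. Gabarapl1, a relative of LC3B that acts in later steps of autophagosome maturation, had 90.2, 101.6 and 101.0 TPM in mdx with PB1046, against 98.6, 83.5 and 70.8 TPM in mdx with saline. It had 82.9, 83.1 and 97.6 TPM in mdx:Utrn+/- with PB1046, against 113.5, 80.0 and 89.8 TPM in mdx:Utrn+/- with saline. Its groups overlapped too, with log2 differences of 0.06 (-0.43 to 0.55) and -0.27 (-0.76 to 0.22), and they were -0.02 and -0.10 without the 5 libraries. With the endothelial score as a term the value in mdx:Utrn+/- was -0.11.

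Sqstm1 encodes p62, the receptor that brings ubiquitin-tagged cargo to LC3. It had 355.5, 306.8 and 343.6 TPM in mdx with PB1046, against 428.7, 319.6 and 275.5 TPM in mdx with saline. In mdx:Utrn+/- it had 296.5, 277.9 and 418.1 TPM with PB1046, against 465.8, 296.1 and 394.2 TPM with saline. The values overlapped, and the log2 differences were -0.17 (95% interval -0.81 to 0.48) in mdx and -0.40 (-1.05 to 0.24) in mdx:Utrn+/-. Its value in mdx:Utrn+/- was -0.15 without the 5 libraries apart and -0.17 with the endothelial score as a term. Bnip3, a mitochondrial outer membrane receptor for the removal of mitochondria and a hypoxia-induced gene, had 217.4, 216.5 and 171.2 TPM in mdx with PB1046, against 253.7, 182.5 and 150.2 TPM in mdx with saline. It had 209.1, 179.5 and 273.2 TPM in mdx:Utrn+/- with PB1046, against 187.7, 205.1 and 383.2 TPM in mdx:Utrn+/- with saline. The value of 383.2 TPM, in mdx:Utrn+/- saline library 3, was the highest of the 12 and had no near neighbour. The log2 differences of Bnip3 were -0.09 (-0.84 to 0.66) in mdx and -0.36 (-1.11 to 0.39) in mdx:Utrn+/-. Bnip3 in mdx:Utrn+/- was at -0.08 without the 5 libraries apart and at -0.12 with the endothelial score as a term. For all 5 autophagy members limma's adjusted p was 0.999 in mdx and 0.998 in mdx:Utrn+/-.

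**Figure D3:**
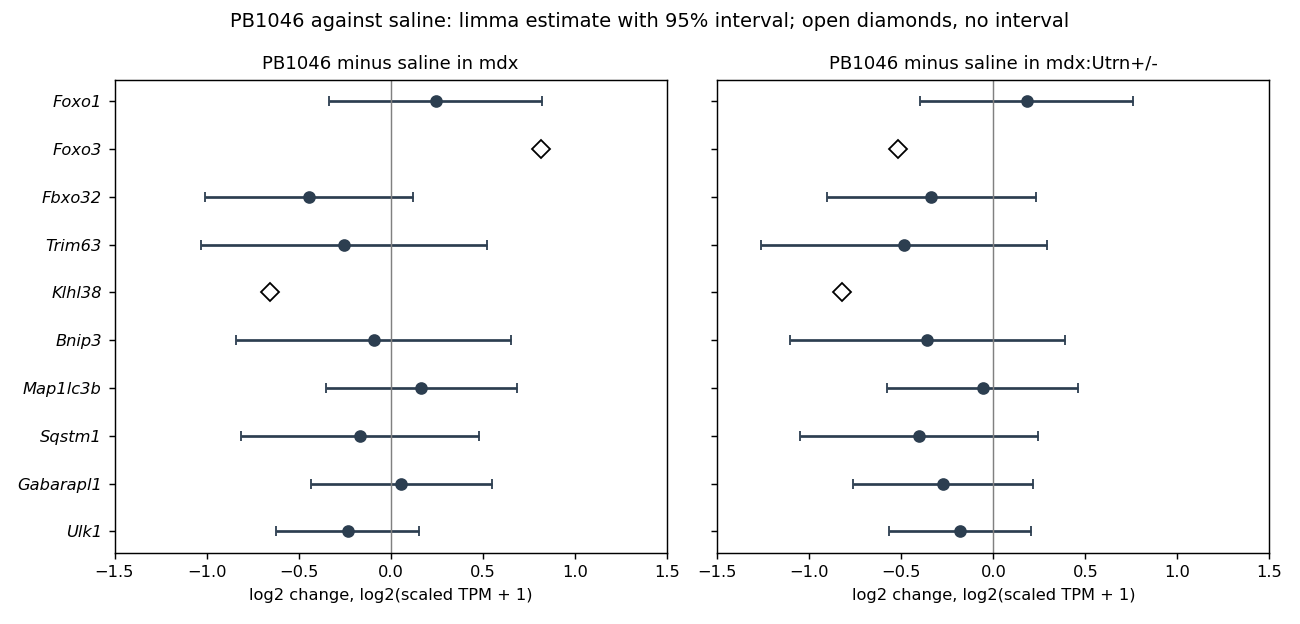
Difference of log2(scaled TPM + 1), PB1046 minus saline, in mdx (left) and mdx:Utrn+/- (right), with limma's 95% interval for the 8 members that were tested. Open diamonds are Foxo3 and Klhl38, drawn without an interval since they were chosen for this contrast. All 16 intervals span 0.

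None of the 8 members tested against PB1046 passed an adjusted p under 0.05 in limma in mdx, in mdx:Utrn+/- or averaged over both, and none had an unadjusted p under that value. The share of all tested genes called was 0.0% in each of these contrasts, with 394 genes (3.08%), 251 genes (1.96%) and 318 genes (2.48%) under 0.05 before adjustment. limma-voom on the recovered reads called none either, with 429, 208 and 332 genes under 0.05 unadjusted. Among these 332 was 1 member, Fbxo32 averaged over the genotypes (adjusted p = 0.999 in limma-voom). The sign of the 8 estimates was lower with PB1046 for 5 in mdx and 7 in mdx:Utrn+/-, with medians of -0.13 and -0.30 beside -0.00 and -0.01 for all genes tested. Without the 5 libraries apart 6 were lower in mdx and 6 in mdx:Utrn+/-, with medians of -0.14 and -0.09. The difference between the genotypes' responses was tested for the same 8, and none passed (adjusted p 0.999 in limma, 0.0% of all genes called, 288 unadjusted, and none by limma-voom, 275 unadjusted).

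In the genotype comparison averaged over treatments, 7 of 10 members were higher in mdx:Utrn+/- than in mdx, with a median log2 difference of 0.20 beside 0.01 for all genes, and none of 10 passed in limma (0.0% of all genes, 468 unadjusted; none by limma-voom, 431 unadjusted). Bnip3 had the largest estimate, 0.49 (95% interval -0.04 to 1.02), followed by Trim63 at 0.35 (-0.20 to 0.90) and Sqstm1 at 0.32 (-0.14 to 0.78), and Gabarapl1 stood at 0.26, Map1lc3b at 0.24 and Ulk1 at 0.15. Foxo1 was at 0.00 and Fbxo32 at -0.03. Of the 5 libraries that stood apart, 4 were mdx and 1 was mdx:Utrn+/-, so endothelial marker level moves with genotype here. Those 4 mdx libraries also have the 4 highest library numbers in the labels, while the 1 mdx:Utrn+/- library has a lower one. For these 4, genotype and library number cannot be told apart, and the part of library number in the split was not tested. All 10 cardiomyocyte markers were higher in mdx:Utrn+/- (median 0.29) and all 15 endothelial markers lower (-0.41), and the part of the cardiomyocyte markers in these estimates was not tested. With the endothelial score as a term the genotype estimates were 0.35 for Bnip3, 0.12 for Trim63, 0.18 for Sqstm1, 0.16 for Gabarapl1, 0.14 for Map1lc3b, 0.11 for Ulk1 and -0.14 for Fbxo32. They were, with the 5 libraries apart left out, 0.19 for Bnip3, 0.00 for Trim63, 0.05 for Sqstm1, 0.10 for Gabarapl1, -0.01 for Map1lc3b, 0.09 for Ulk1, -0.19 for Fbxo32, 0.13 for Foxo1 and 0.01 for Foxo3, and -0.45 for Klhl38, with a median over the 10 members of 0.03. Within a single treatment no gene passed in limma either (0.0% under saline, with 515 unadjusted, and 0.0% under PB1046, with 212; none by limma-voom, with 470 and 226 unadjusted). Without scaling factors the median of all genes was -0.21 in this comparison, and Map1lc3b, Ulk1 and Foxo1 then had estimates of -0.01, -0.09 and -0.23. Relative to that median Map1lc3b and Ulk1 were higher and Foxo1 about level.

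Several members separated the libraries that stood apart. In scaled TPM, Trim63, Bnip3, Map1lc3b, Sqstm1 and Gabarapl1 were each lower in all 5 libraries that stood apart than in any of the other 7, as were 8.11% of all genes tested; the 5 libraries were set by the same expression values, so this is a description. In deposited TPM the ranges of all 5 genes overlapped, for Sqstm1 at 275.5 to 343.6 TPM in the 5 against 296.1 to 465.8 TPM in the 7. The closest pair was Sqstm1 and Gabarapl1, with r = 0.94 over 12 libraries and 0.88 over the 7. Bnip3 and Ulk1 had 0.85 and 0.79. Other pairs rested on the split: Bnip3 and Sqstm1 had r = 0.77 over 12 but 0.13 over the 7, and Bnip3 and Map1lc3b 0.75 and 0.05. Foxo1 ran against Ulk1 (-0.78 over 12, -0.82 over 7) and Bnip3 (-0.74 and -0.79), and Foxo1 and Foxo3 had r = 0.35.

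**Figure D4:**
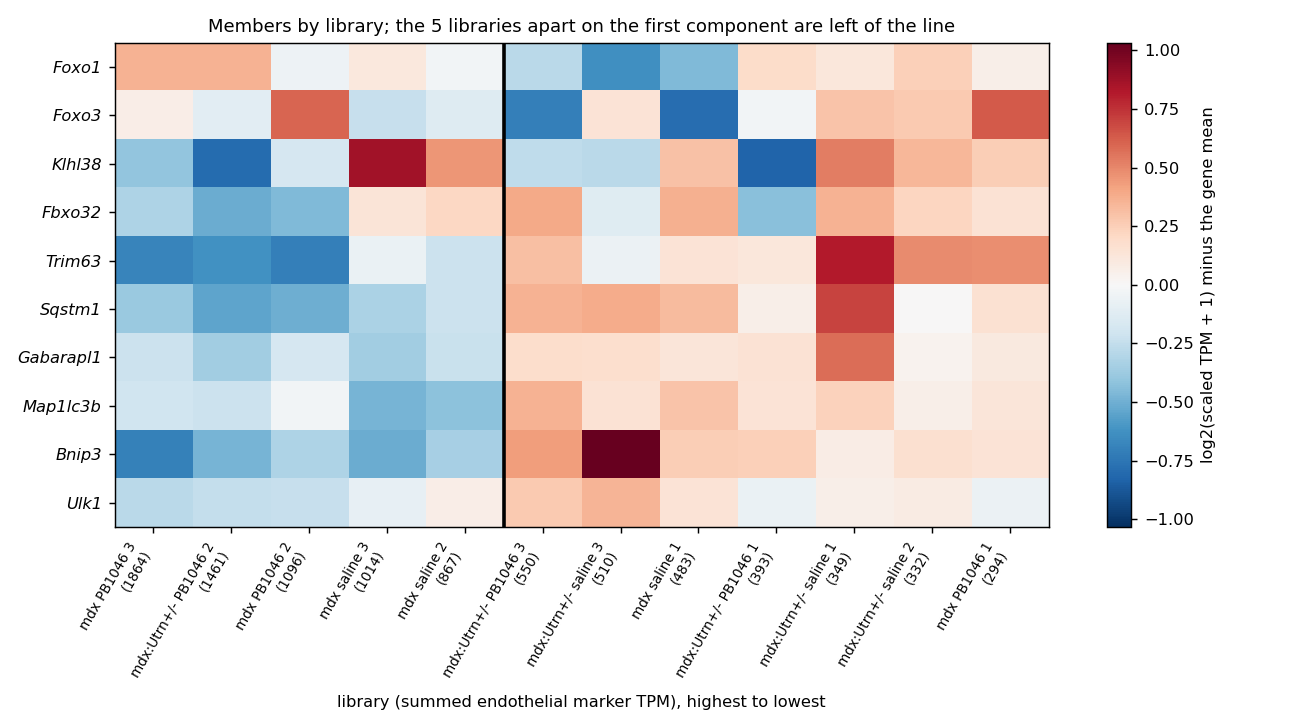
log2(scaled TPM + 1) of each member minus its mean over the 12 libraries, with libraries ordered by summed endothelial marker TPM (in brackets). Left of the line are the 5 libraries that stood apart, in which Trim63, Sqstm1, Gabarapl1, Map1lc3b and Bnip3 are below their mean; Foxo3 and Klhl38 do not follow the split.

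By likeness over the 12 libraries, the 5 genes nearest to Foxo3 were Emp1 (r = 0.88), Pla2g4a, Gpr124, Pdpr and Dusp4 (0.86), none of them a member. Those nearest to Fbxo32 were Chchd5 (r = 0.95), Tmem86a, Gnptab, Map2k5 and Mnat1, and those nearest to Klhl38 were Zfp607 (r = 0.84), Frat2, Med17, Mplkip and Rit1, of which Frat2 had as little as 1 read in a library. The Foxo3 level did not run with that of the atrophy genes: r was -0.36 with Fbxo32, -0.01 with Trim63 and 0.01 with Klhl38.

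Beyond the members, other genes of the pathway were taken from lists that leave the members out. Of 20 further FOXO target genes, 11 were higher with PB1046 in mdx (median log2 difference 0.07) and 5 in mdx:Utrn+/- (-0.16), and none passed the adjusted test in either. Pdk4, the kinase that holds back pyruvate oxidation, had the highest estimate in both, 1.92 in mdx (303.6, 296.0 and 100.3 TPM with PB1046, against 151.4, 23.4 and 31.4 TPM with saline) and 1.00 in mdx:Utrn+/-. The lowest in mdx:Utrn+/- was that of Pik3ip1, an inhibitor of PI3K, with 23.0 ± 8.04 TPM with PB1046 and 43.2 ± 20.1 TPM with saline (SD, n = 3 each), and the 95% interval of its log2 difference ran from -2.21 to 0.20. Ddit4, which restrains mTOR, had 49.8, 156.2 and 102.1 TPM with PB1046 against 22.6, 56.9 and 15.3 TPM with saline in mdx, a log2 difference of 1.57 (95% interval 0.43 to 2.72, adjusted p = 0.999 in limma). Its groups overlapped in deposited TPM and not when scaled. In scaled TPM 1 of the 20 genes was higher without overlap in mdx, beside 4.0% of all tested genes. Of 23 tested ubiquitin ligase and atrophy genes other than Fbxo32 and Trim63, 12 were higher in mdx and 13 in mdx:Utrn+/-, with medians of 0.01 and 0.02. Their widest differences in mdx were for Fbxo40 (0.80) and Trim55, which encodes MuRF2 (0.71), where Trim63 was at -0.25, or 0.34 without the 5 libraries apart. Of 12 other muscle kelch genes, 7 and 5 were higher, with medians of 0.04 and -0.04.

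The lists of core autophagy machinery and cargo receptors had medians close to that of all genes. Of 31 genes of the core machinery, 15 were higher with PB1046 in mdx (median -0.02) and 13 in mdx:Utrn+/- (-0.04), and of 17 cargo receptors 10 and 8 were higher (0.04 and -0.01). Atg101 had the lowest core estimate in mdx:Utrn+/-, a log2 difference of -0.81 (95% interval -1.58 to -0.03, adjusted p = 0.998 in limma), and its groups overlapped. Map1lc3a, the other LC3 gene, was above Map1lc3b in these libraries, with 1303, 1168 and 1039 TPM in mdx:Utrn+/- with PB1046, against 1731, 1547 and 1215 TPM in mdx:Utrn+/- with saline. These groups overlapped, and the log2 difference was -0.53 (-1.10 to 0.04, adjusted p = 0.998 in limma). Of 27 lysosome and TFEB genes, 14 were higher in mdx (median 0.00) and 8 in mdx:Utrn+/- (-0.18, beside -0.01 for all genes tested). In mdx:Utrn+/- 19 of the 27 were lower, with the lowest estimate for Ctsd (-0.58). Rab7, the GTPase that carries autophagosomes to lysosomes, had 128.5, 219.0 and 133.6 TPM with PB1046 in mdx, against 68.0, 85.4 and 80.9 TPM with saline, without overlap (0.83, 95% interval 0.26 to 1.39, adjusted p = 0.999 in limma). It was named for the smallest unadjusted p of its list in mdx. In scaled TPM 1 of the 27 genes was higher without overlap there, beside 4.0% of all tested genes. Of 24 insulin, PI3K, Akt and mTOR genes, 14 and 18 were higher with PB1046, with medians of 0.11 and 0.09. No gene of these lists passed the adjusted test in either direction.

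Glucocorticoid hormones induce Fbxo32, Trim63 and FOXO genes in muscle, so 10 glucocorticoid-responsive genes were set beside them. With PB1046 all 10 were higher in mdx (median log2 difference 0.66) and 3 of 10 in mdx:Utrn+/- (-0.56), and none passed the adjusted test. The macrophage and fibroblast markers given beside Foxo3 had the same signs, and 9 of 10 smooth muscle and pericyte markers were higher with PB1046 in mdx (median 0.46) and 3 of 10 in mdx:Utrn+/- (-0.07). The summed smooth muscle and pericyte markers ranged from 252.1 to 450.1 TPM with PB1046 and 174.9 to 251.2 TPM with saline in mdx, and from 206.8 to 250.7 TPM with PB1046 and 133.7 to 299.8 TPM with saline in mdx:Utrn+/-. The part of these markers in the list's levels was not tested. Klf9 had 20.5, 45.2 and 36.8 TPM with PB1046 in mdx, against 11.7, 16.8 and 21.5 TPM with saline, and overlapped only as deposited. Zbtb16 had 3.16, 1.89 and 2.20 TPM with PB1046 in mdx:Utrn+/-, against 7.65, 4.48 and 16.4 TPM with saline, where the groups did not overlap. In scaled TPM 2 of the 10 genes were higher without overlap in mdx, beside 4.0% of all tested genes. These were Klf9 and Ddit4, and Ddit4 is the same gene as the FOXO target counted above. The lists share genes: Ddit4 and Klf15 are also among the FOXO targets, and Sgk1 is also among the insulin, PI3K, Akt and mTOR genes. In mdx:Utrn+/- 2 of the 10 were lower without overlap, beside 2.75% of all. Sgk1 went the other way there: it was the 1 gene of the 10 that was higher without overlap (log2 difference 0.84), beside 2.89% of all. Foxo3 was higher with PB1046 in mdx and lower in mdx:Utrn+/-, and Klhl38 was lower in both genotypes. Both were chosen for their PB1046 response, so their directions say nothing further beside this list. Fbxo32 and Trim63 had lower estimates with PB1046 in both genotypes. Without the 5 libraries apart Trim63 in mdx was at 0.34, on 1 library a side.

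**Figure D5:**
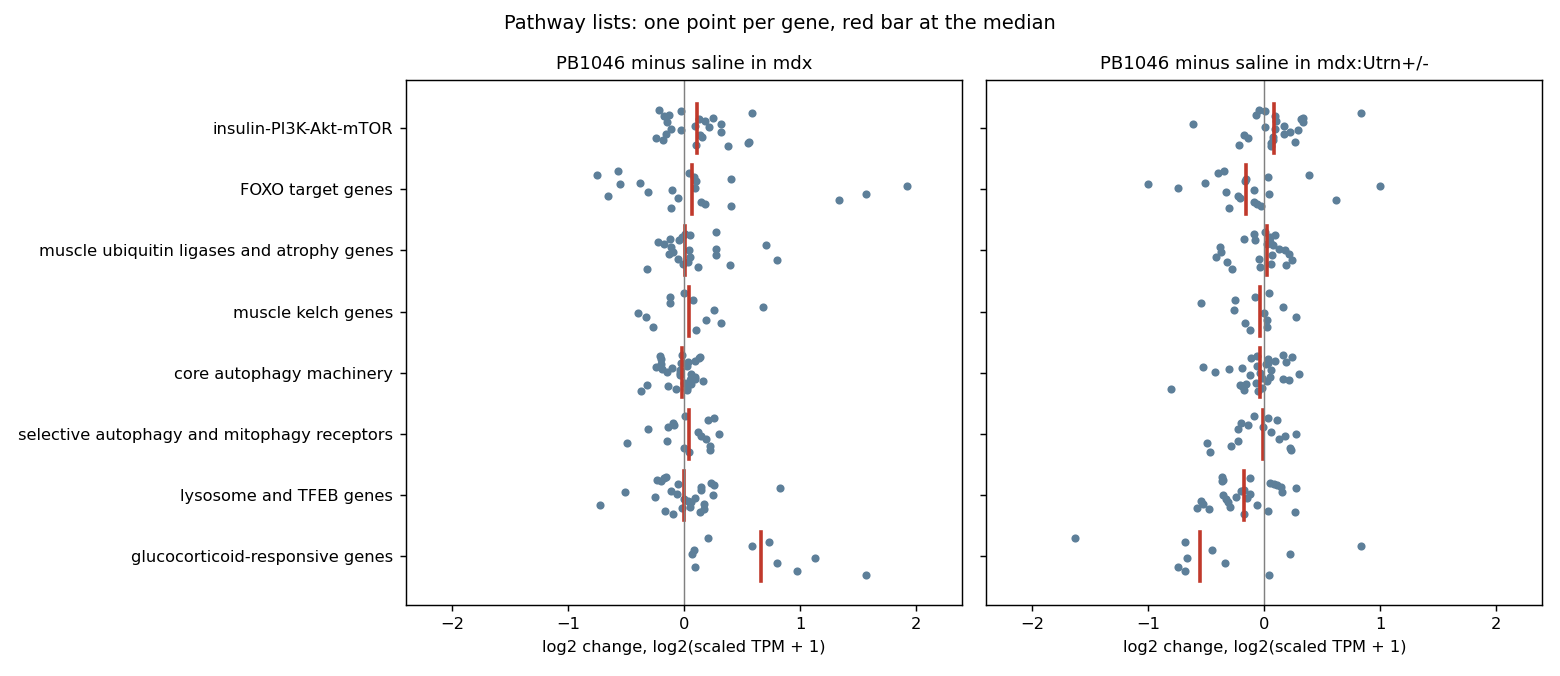
Difference of log2(scaled TPM + 1), PB1046 minus saline, for the tested genes of 8 pathway lists in mdx (left) and mdx:Utrn+/- (right). Each point is a gene and the red bar is the list's median, which lies between -0.18 and 0.11 for all lists but the glucocorticoid-responsive genes (0.66 and -0.56).

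In the authors' deposited table, turned to read PB1046 minus saline, the log2 fold change of Foxo3 is 0.98 in mdx and -0.59 in mdx:Utrn+/-, and that of Klhl38 is -0.70 and -0.91. For Fbxo32 the authors' deposited table gives -0.43 and -0.29, and for Trim63 -0.15 and -0.47. For the 8 members not chosen by response, the false discovery rate in the authors' deposited table is 1.00 in both PB1046 comparisons.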

How the data were processed

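Poly-A RNA of isolated cardiomyocytes was sequenced with a stranded kit, per the labels' protocols, in 12 libraries whose groups were read from the labels. The labels give 0.75 and 1.5 mg/kg as doses and name the treated libraries as high dose. The authors deposited 1 table on mm10 for 18530 genes, also as a copy with the same values. Its name speaks of raw counts, yet each library's deposited values are TPM with a sum of 1000000. Per the file headers it also holds the authors' log2 fold changes, likelihood ratio scores, p-values and false discovery rates. Without a version, edgeR is named in the submitters' processing notes; the aligner, the counter and its strand setting are not given in the sources used. The authors' log2 fold changes run as saline minus PB1046 and mdx minus mdx:Utrn+/- (r -0.994 to -0.999 against the opposite differences of TPM), and their sign was turned.

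Each library's TPM were scaled by its own trimmed-mean factor (0.828 to 1.31; trims of 30% on log ratios, 5% on level) and analysed as log2(scaled TPM + 1), which understates changes of low genes. A gene entered the fit if 3 or more libraries reached 1 TPM, which 12798 did. The model in limma 3.58.1 (R 4.3.3) had 4 group means, all 12 libraries, 8 residual degrees of freedom and trend and robust moderation; p-values were Benjamini-Hochberg adjusted over all genes tested, with a threshold of 0.05. Leaving the factors out shifts the median log2 difference of all genes to 0.14 (PB1046, mdx), 0.15 (PB1046, mdx:Utrn+/-) and -0.20 (genotype, each treatment). Whole reads, within 0.1 reads, were recovered from TPM for 100% of values and given to limma-voom as an alternative. The fit was tested on simulated data. Tables and figures were made with Python 3.11.15. The members and gene lists were chosen with earlier results of these data known. Named are the 10 members, up to 4 genes per list and contrast with the smallest unadjusted p, and the 5 genes most like Foxo3, Fbxo32 and Klhl38; genes called out as the extreme of a list were chosen after their values were seen.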

Additional observations from a re-analysis of the deposited data

Results flagged for a closer look

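Foxo3 moved in opposite directions with PB1046 in the 2 genotypes. In scaled TPM every mdx library with PB1046 (4.98 to 7.87) was above every mdx library with saline (2.31 to 4.22), and every mdx:Utrn+/- library with PB1046 (2.51 to 4.60) was below every mdx:Utrn+/- library with saline (5.29 to 6.01). The response in mdx:Utrn+/- minus that in mdx was -1.34 on the log2 scale. The difference was not tested, because Foxo3 was chosen for its response in these libraries. In deposited TPM the mdx:Utrn+/- groups overlap, with the highest PB1046 library at 5.07 TPM between the saline libraries at 4.65 and 5.09 TPM.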

How the results depend on the processing

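The refits covered the PB1046 contrasts, in each genotype and averaged, and the genotype contrast averaged over treatments. In these none of the 10 members passed the adjusted threshold under any of the 12 alternatives or 12 refits without 1 library (smallest adjusted p 0.37 in limma). The PB1046 contrasts of Foxo3 and Klhl38 are left out of this statement, since they are given without a test. So are the genotype contrasts of Foxo3 within a treatment. Of 940 values, 22 turned sign under an alternative and 25 when 1 library was left out, and the cause was not tested. Without scaling factors Bnip3 in mdx was 0.07, Map1lc3b in mdx:Utrn+/- 0.13 and Gabarapl1 over both genotypes 0.06, and the genotype estimates of Foxo1, Map1lc3b and Ulk1 were -0.23, -0.01 and -0.09. The genotype estimate of Foxo1 was -0.00 with a pseudocount of 0.1, -0.03 in limma-voom and -0.02 with a term for the 3 lowest library numbers, under which Gabarapl1 in mdx was -0.05. With log2 Rn45s as a term, Foxo1, Bnip3 and Sqstm1 in mdx were -0.04, 0.18 and 0.03, and with an endothelial score as a term Map1lc3b in mdx:Utrn+/- was 0.12. Without the 5 libraries that stood apart, Foxo3, Trim63, Klhl38, Map1lc3b and Gabarapl1 in mdx were 1.42, 0.34, -0.06, -0.17 and -0.02, Map1lc3b in mdx:Utrn+/- was 0.10, Trim63 and Map1lc3b over both genotypes were 0.07 and -0.04, and the genotype estimates of Foxo3 and Map1lc3b were 0.01 and -0.01. Leaving out 1 library gave ranges that cross 0 for Bnip3 (-0.31 to 0.13), Gabarapl1 (-0.05 to 0.20) and Sqstm1 (-0.37 to 0.03) in mdx, Foxo1 (-0.09 to 0.37) and Map1lc3b (-0.19 to 0.10) in mdx:Utrn+/-, Map1lc3b over both (-0.01 to 0.18), and the genotype estimates of Fbxo32 (-0.18 to 0.06), Foxo1 (-0.08 to 0.14) and Foxo3 (-0.15 to 0.06). Fbxo32 with PB1046 in mdx kept its sign, at -0.62 to -0.32. Over all genes, the difference between the genotypes' responses gave 0 to 1 calls when 1 library was left out; the 1 call, without mdx:Utrn+/- saline replicate 3, was Tmem181b-ps (2.48, adjusted p = 0.0332 in limma). With the replicate block 0 genes were called. Samples with the same replicate number had correlations of -0.443 to 0.491 (median 0.044) and those with other numbers -0.672 to 0.636 (-0.082). These ranges overlap, and whether libraries with the same replicate number were handled together was not tested. The 3 lowest library numbers belong to replicate 1 of mdx with PB1046 and of both mdx:Utrn+/- groups. A fit of only the groups compared gives no averaged or interaction contrast. Depth limits Foxo3 (59 reads at the lowest) and Klhl38 (70) most.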
